A study of Mus musculus with 16 samples.

Results

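The genes of mitosis and the spindle were followed in RNA sequencing of mouse hepatocytes cultured with and without cancer cells. The 42 genes were taken by name from a fixed list, which was chosen with earlier results of these data known. They were matched to the gene names of the expression table, which holds 54532 genes, and all 42 were found. All 42 also averaged at least 1 FPKM over the 16 libraries, the minimum set for testing, which 11395 genes of the table met. FPKM scales fragments to the length of the gene and the depth of the library, so levels of different genes can be set side by side.

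A cell that divides switches these genes on together late in its cycle. Cyclin-dependent kinase 1 with its cyclins drives entry into mitosis, kinetochores attach the chromosomes to the spindle, a checkpoint holds the cell until all are attached, and the anaphase-promoting complex then releases the sister chromatids before the cell is pinched apart. Most hepatocytes of an adult liver rest outside the cycle and can return to it after injury, so transcripts of this kind serve as a readout of cycling in liver cells.

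Of the 5 groups, the first was hepatocytes cultured with cancer cells knocked out for Phgdh and given a CXCR2 inhibitor (KO co-culture with CXCR2i, n = 4). Hepatocytes with Phgdh wild-type cancer cells and the inhibitor formed the second (WT co-culture with CXCR2i, n = 3). The co-cultures without the inhibitor had KO cells (n = 3) or WT cells (n = 3), and the last group was hepatocytes alone (n = 3). Phgdh makes the enzyme that starts serine synthesis, and CXCR2 is a chemokine receptor. Every library is labelled as mouse hepatocytes, listed as a cell line, whereas the design text of the series describes cancer cells (HY19636) as the material sequenced; the labels were followed. How hepatocytes were kept apart from the cancer cells, the number of KO clones, the vehicle, dose, duration and batch are not stated in the sources used here, and hepatocytes given the inhibitor in the absence of cancer cells were not among the groups. Whether replicates were separate cultures is likewise not stated, so p-values measure the spread between these libraries, which may be technical.

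Libraries held 15.002 to 21.3 M fragments. The summed level of 12 hepatocyte markers was 1007 to 1071 FPKM in KO co-cultures with CXCR2i, 794 to 809 FPKM in WT co-cultures with CXCR2i, 173 to 186 FPKM in KO co-cultures, 147 to 165 FPKM in WT co-cultures and 259 to 264 FPKM in hepatocytes alone. Albumin was present in every library (22.5 to 475 FPKM), while the mature hepatocyte enzyme Cyp2e1 stayed at or under 0.330 FPKM throughout. The summed level of 10 genes listed as markers of pancreatic cancer epithelium was 693 to 723 FPKM in KO and 726 to 777 FPKM in WT co-cultures with CXCR2i, 259 to 277 FPKM in KO and 262 to 291 FPKM in WT co-cultures, and 377 to 389 FPKM in hepatocytes alone. That list's Krt19, Msln and Sox9 were thus high in hepatocytes alone as well, whereas Tff1 and Agr2 were at 0 in every library and Epcam reached at most 0.207 FPKM. Summed markers of stellate cells, endothelial cells, neutrophils and lymphocytes reached at most 0.547 FPKM in any library, and those of Kupffer cells at most 5.69 FPKM. Of the Kupffer list, Adgre1, Clec4f and Vsig4 were at 0, and Csf1r and Lyz2 reached at most 0.120 and 0.0944 FPKM. Cd68 measured 3.90 to 4.65 FPKM in KO and 4.25 to 5.67 FPKM in WT co-cultures with CXCR2i. It measured 0.901 to 1.23 FPKM in KO co-cultures, 1.18 to 1.47 FPKM in WT co-cultures and 0.399 to 1.21 FPKM in hepatocytes alone. Mitochondrially encoded transcripts made up 1.86% to 2.11% of fragments in libraries with CXCR2i and 3.25% to 4.57% in libraries without it. With the inhibitor the summed hepatocyte and pancreatic epithelium markers rose, as the summed mitosis genes did, while the mitochondrial share fell. Unlike the summed mitosis genes, both marker sums then stood above those of hepatocytes alone. The part of these shifts in the results was not tested. In bulk samples, fewer cycling cells and less of each transcript per cycling cell cannot be told apart.

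In hepatocytes cultured with cancer cells, the set as a sum was expressed at a small part of its level in hepatocytes alone. With the CXCR2 inhibitor the sum stood at about midway, while single members ran from 32.1% to 98.4% of their level in hepatocytes alone. Bub3 was an exception, at 70.3% in KO and 70.7% in WT co-cultures without the inhibitor. Added over the 42 genes, the level was 322 to 336 FPKM in the 4 KO co-cultures with CXCR2i, 338 to 350 FPKM in the WT co-cultures with CXCR2i, 81.7 to 82.8 FPKM in the KO co-cultures, 69.4 to 71.4 FPKM in the WT co-cultures and 604 to 618 FPKM in hepatocytes alone. The median member stood at 54.0% of its mean in hepatocytes alone in KO co-cultures with CXCR2i, 55.5% in WT co-cultures with CXCR2i, 10.8% in KO co-cultures and 8.38% in WT co-cultures. No 2 of the 5 groups overlapped in the summed FPKM. The gap between KO and WT co-cultures with CXCR2i was small, at 336.4 against 338.4 FPKM. As the members' share of all fragments in a library, KO and WT co-cultures with CXCR2i did overlap. The fourth KO library with CXCR2i held 1737 member fragments per M fragments, above the second WT library with CXCR2i at 1715.

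**Figure D1:**
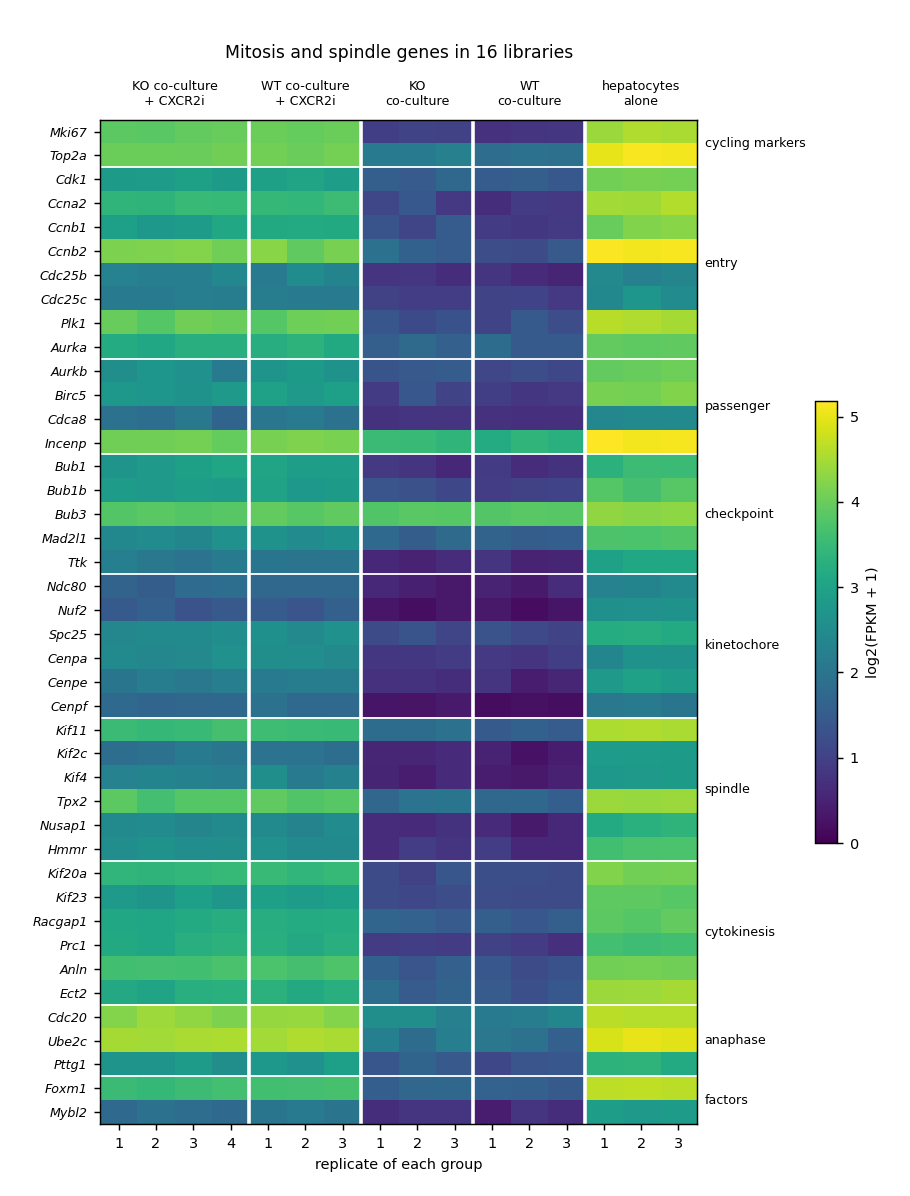
Level of each of the 42 genes (rows, ordered by role) in each of the 16 libraries (columns, by group), as log2(FPKM + 1) on a colour scale. The 6 libraries of both co-cultures without CXCR2i are dark in nearly every row, with Bub3 and Incenp the brightest there, and the 3 libraries of hepatocytes alone are the brightest.

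Tested with limma on log2(FPKM + 1) across all genes, 42 of 42 members fell in WT co-cultures against hepatocytes alone, beside 31.9% of all genes tested. The members' median log2 fold change was -2.64, against 0.01 for all genes. In KO co-cultures, likewise, 42 of 42 fell, beside 31.2% of all genes, with a median of -2.50 against 0.01. In each of these comparisons 41 of the 42 fell at least 2-fold, beside 6.21% of all genes in KO and 6.35% in WT co-cultures. In all 42 members every co-culture library lay under every library of hepatocytes alone, beside 33.8% of all genes in KO and 32.0% in WT co-cultures. These comparisons share the libraries of hepatocytes alone and are not independent of each other.

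With the inhibitor, 41 of 42 members rose in WT co-cultures with CXCR2i against WT co-cultures, beside 33.5% of all genes, at a median log2 fold change of 1.75 against -0.01 for all genes. In KO co-cultures with CXCR2i against KO co-cultures, 41 rose, beside 34.8% of all genes, at a median of 1.59 against -0.01. The member outside both counts was Bub3. Levels with the inhibitor still lay under those of hepatocytes alone: 40 of 42 members were lower in WT co-cultures with CXCR2i, beside 34.7% of all genes, and 40 of 42 in KO co-cultures with CXCR2i, beside 36.1%. The median log2 fold change was -0.75 in KO and -0.69 in WT co-cultures with CXCR2i, and 15 members in KO and 13 in WT co-cultures with CXCR2i were lower by at least 2-fold, beside 4.41% and 4.14% of all genes. Cdc25b and Cenpa were the members outside both counts.

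Many late cell cycle promoters carry a cell cycle genes homology region, or CHR, which is bound by the MuvB complex in its repressing form with DREAM and its activating form with B-Myb and Foxm1, and CCAAT boxes bound by NF-Y. Because the members moved together, their promoters were read from RefSeq (build GRCm38.p6) over 250 bases before and 50 bases from the annotated start. Promoters were at hand for 35 of the 42 members, and for 26 of them the start lay within 50 bases of the gene's end in the expression table. All promoters printed below except that of Nuf2 hold both elements. The first 2 are those of a cyclin and of the cycling marker. That of Cenpa belongs to a gene that came back close to its level in hepatocytes alone, and that of Bub3 to the member that moved least. Nuf2 is one of those with the smallest share of their FPKM in hepatocytes alone left in the co-cultures. Capitals mark TTTGAA or TTTAAA (the CHR forms searched) and CCAAT, on either strand, so that matches on the opposite strand read TTCAAA and ATTGG.
Ccnb2 (chr9:70421505-70421804, minus strand): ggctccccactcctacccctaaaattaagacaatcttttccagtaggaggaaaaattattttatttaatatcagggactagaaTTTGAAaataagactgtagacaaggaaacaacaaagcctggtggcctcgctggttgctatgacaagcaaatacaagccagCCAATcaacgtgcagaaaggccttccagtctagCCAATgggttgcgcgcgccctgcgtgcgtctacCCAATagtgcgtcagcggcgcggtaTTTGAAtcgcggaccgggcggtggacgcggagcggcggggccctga
Mki67 (chr7:135716330-135716629, minus strand): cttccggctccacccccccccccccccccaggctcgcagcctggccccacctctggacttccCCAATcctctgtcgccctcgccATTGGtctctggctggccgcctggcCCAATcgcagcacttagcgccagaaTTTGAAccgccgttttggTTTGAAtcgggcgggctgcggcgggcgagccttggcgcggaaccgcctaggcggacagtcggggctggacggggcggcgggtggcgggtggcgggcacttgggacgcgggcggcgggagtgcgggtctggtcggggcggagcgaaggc
Cenpa (chr5:30666636-30666935, plus strand): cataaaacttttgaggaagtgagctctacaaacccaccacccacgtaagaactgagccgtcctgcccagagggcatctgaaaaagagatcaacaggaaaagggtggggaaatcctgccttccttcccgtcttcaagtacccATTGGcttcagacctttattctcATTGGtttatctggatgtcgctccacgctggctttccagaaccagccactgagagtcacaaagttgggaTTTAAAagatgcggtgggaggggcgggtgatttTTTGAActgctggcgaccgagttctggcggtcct
Bub3 (chr7:131560120-131560419, plus strand): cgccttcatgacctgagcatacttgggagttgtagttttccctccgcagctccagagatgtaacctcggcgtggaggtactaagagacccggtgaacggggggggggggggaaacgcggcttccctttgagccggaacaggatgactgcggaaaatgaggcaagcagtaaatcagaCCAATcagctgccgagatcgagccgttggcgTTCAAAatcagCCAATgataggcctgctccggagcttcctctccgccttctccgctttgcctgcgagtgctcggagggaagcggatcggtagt
Nuf2 (chr1:169531415-169531714, minus strand): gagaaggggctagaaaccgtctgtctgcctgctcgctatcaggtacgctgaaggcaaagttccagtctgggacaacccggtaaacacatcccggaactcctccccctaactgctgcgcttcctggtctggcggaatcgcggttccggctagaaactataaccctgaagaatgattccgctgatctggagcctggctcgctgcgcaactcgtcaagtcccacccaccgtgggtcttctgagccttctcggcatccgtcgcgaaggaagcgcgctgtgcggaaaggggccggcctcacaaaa

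TTTGAA was found in 25 of the 35 member promoters (71.4%), in 11.7% of the 8317 promoters of tested genes and in 16.9% of all 20480 promoters of the table. TTTAAA, which reads the same on both strands, was found in 25.7% of member promoters, 8.65% of those of tested genes and 12.1% of all. CCAAT stood in 26 of 35 (74.3%), against 39.5% of tested genes and 38.2% of all, and 2 or more copies in 51.4%, against 16.03% and 12.7%. Both a CHR form and a CCAAT stood in 24 of 35 (68.6%), against 7.80% of tested genes and 10.2% of all. Matches of different motifs shared bases only in Cdca8, for 1 CCAAT and 1 TTTGAA, and a match is a description of the sequence, not a bound site. Top2a and Ube2c held the most CCAAT copies, with 6 each, and Hmmr held 5. Nuf2, Mad2l1, Mybl2, Nusap1 and Pttg1 held none of the 3 motifs in this window. The annotated starts of Mad2l1, Mybl2 and Pttg1 lay 169, 52 and 270 bases from the gene's end in the expression table. For Cenpa and Bub3, printed above, the distances were 109 and 148 bases. The window may thus miss part of the promoter in use for these genes. Bub3 held 1 TTTGAA and 2 CCAAT, as many as Ttk and Spc25. Its level differed far less between groups than theirs, and motif content was not tested against the changes in level.

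**Figure D2:**
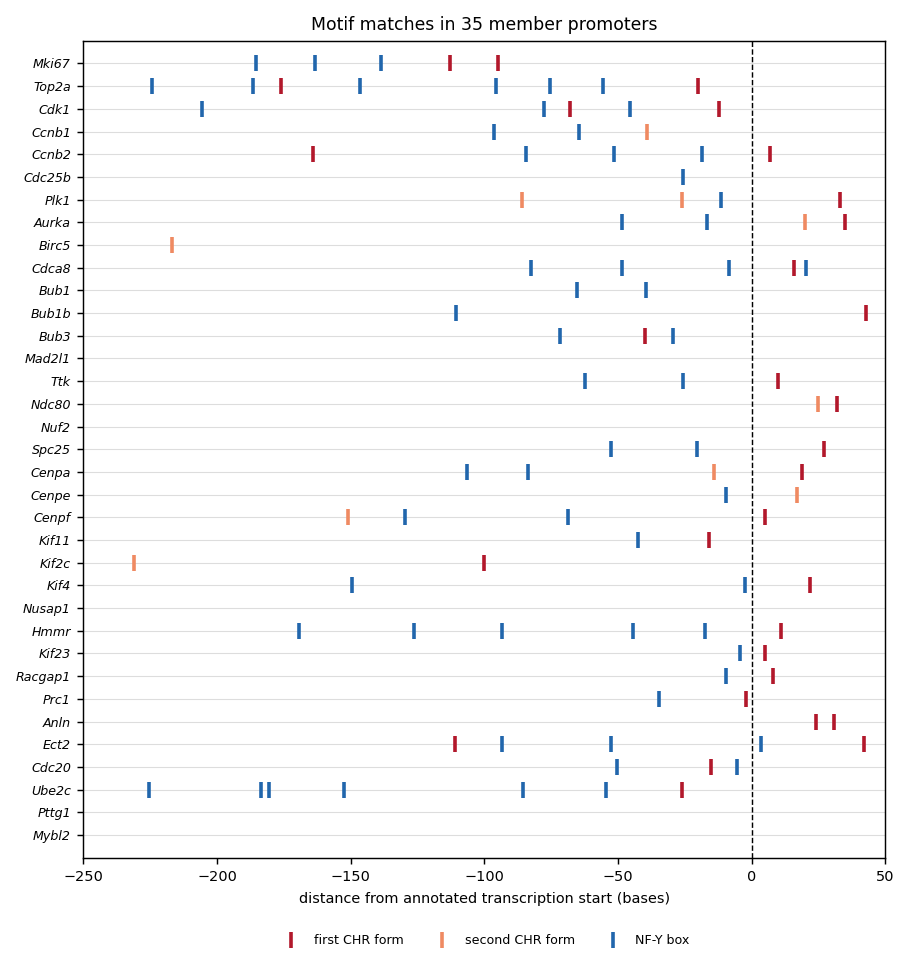
Positions of the motif matches in the promoters of 35 members (rows), as the distance in bases of each match's centre from the annotated transcription start (dashed line). Marks show TTTGAA as the first CHR form, TTTAAA as the second, and CCAAT as the NF-Y box; most CHR forms lie near the start and the NF-Y boxes mostly upstream of them.

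Among the markers of cycling cells, Mki67 coats mitotic chromosomes and is the usual label of cycling cells. It measured 13.7, 13.6, 14.3 and 14.8 FPKM in KO co-cultures with CXCR2i and 15.2, 14.4 and 15.1 FPKM in WT co-cultures with CXCR2i. Without the inhibitor it measured 0.935, 1.10 and 1.03 FPKM in KO co-cultures and 0.667, 0.718 and 0.773 FPKM in WT co-cultures, against 20.0, 22.7 and 22.1 FPKM in hepatocytes alone. All 7 libraries with the inhibitor lay under every library of hepatocytes alone and far above every co-culture without it, and neither boundary overlapped. The level in WT co-cultures was 3.33% of that in hepatocytes alone, the smallest share of any member (-3.72 ± 0.05 in log2 fold change ± SE, adjusted p = 6.70e-16), and with the inhibitor it was 20.7-fold higher (3.21 ± 0.05, adjusted p = 2.44e-15). Top2a, the topoisomerase that untangles sister chromatids, averaged 15.3 ± 0.279 FPKM in KO co-cultures with CXCR2i (SD, n = 4) and 15.7 ± 0.614 FPKM in WT co-cultures with CXCR2i (n = 3). Its mean was 3.54 ± 0.183 FPKM in KO co-cultures, 2.76 ± 0.137 FPKM in WT co-cultures and 32.8 ± 1.80 FPKM in hepatocytes alone (n = 3 each). It stood at 46.5% of its level in hepatocytes alone in KO and 48.0% in WT co-cultures with CXCR2i, against 65.4% and 69.1% for Mki67.

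**Figure D3:**
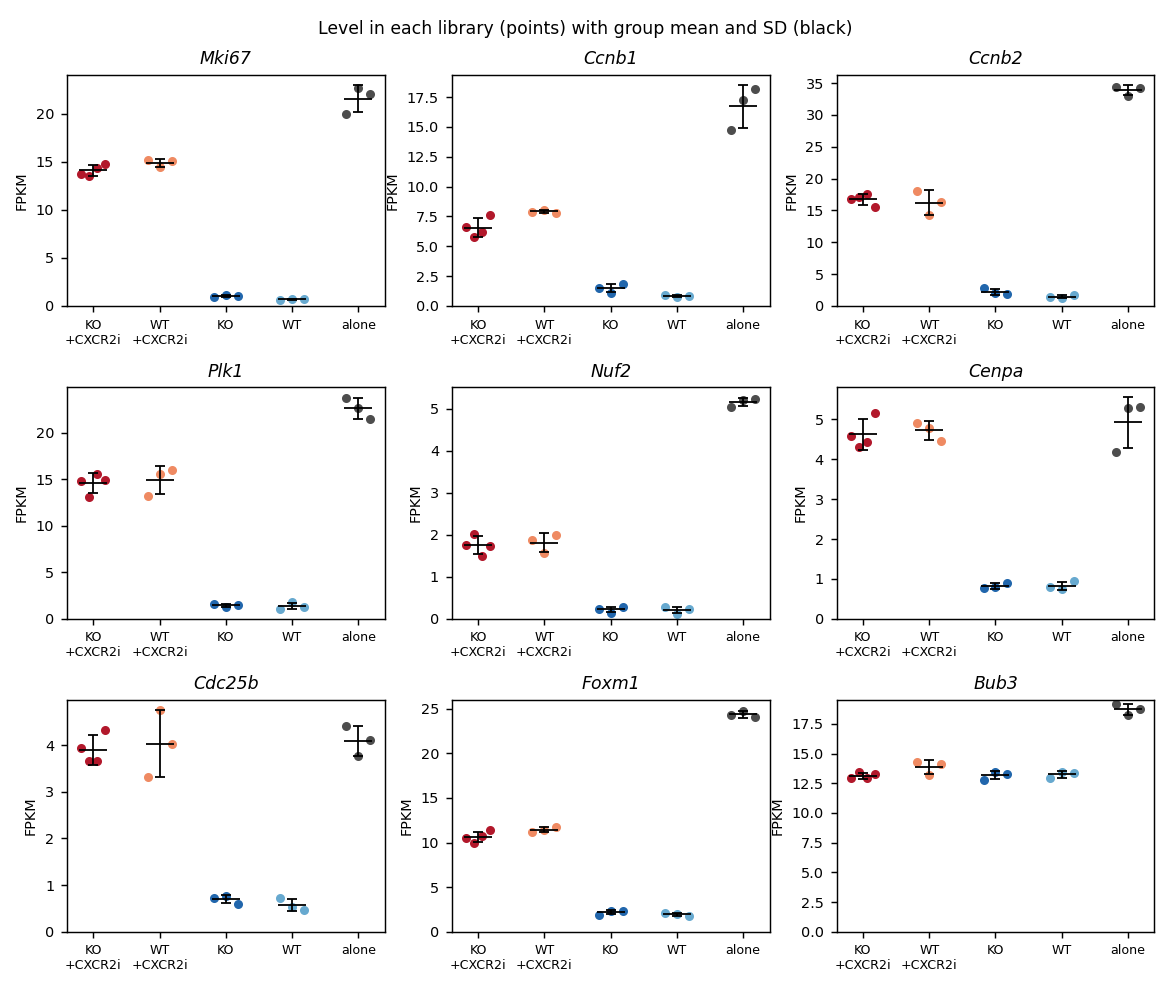
FPKM of 9 members in every library (points), with the group mean and SD in black, for KO and WT co-cultures with CXCR2i, KO and WT co-cultures without it, and hepatocytes alone; each vertical axis starts at 0. Cenpa and Cdc25b with CXCR2i overlap with hepatocytes alone, Nuf2 stays far below, and Bub3 is near 13 FPKM in all 4 co-culture groups.

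The 8 genes of mitotic entry all fell in KO and in WT co-cultures without CXCR2i, and all 8 rose with it in either genotype. Ccnb2, a B-type cyclin whose promoter is printed above, had the largest fall of any member in WT co-cultures on the log2(FPKM + 1) scale, though not as a share of FPKM. It measured 1.34, 1.27 and 1.75 FPKM in WT co-cultures and 34.4, 33.0 and 34.3 FPKM in hepatocytes alone (-3.84 ± 0.10, adjusted p = 3.35e-13). With the inhibitor it measured 18.1, 14.2 and 16.4 FPKM in WT co-cultures (2.81 ± 0.10 against WT co-cultures without it, adjusted p = 8.69e-12), so that its libraries lay apart from both other groups. Ccnb1, the other B-type cyclin, measured 6.66, 5.75, 6.22 and 7.63 FPKM in KO co-cultures with CXCR2i, 7.90, 8.05 and 7.82 FPKM in WT co-cultures with CXCR2i, 1.53, 1.12 and 1.86 FPKM in KO co-cultures, 0.898, 0.788 and 0.837 FPKM in WT co-cultures and 14.7, 17.3 and 18.2 FPKM in hepatocytes alone. Ccna2, the cyclin of S phase and early mitosis, was at 3.48% of its level in hepatocytes alone in WT co-cultures (0.593 to 0.866 FPKM against 20.8 to 23.2 FPKM). Their kinase Cdk1 was at 11.4% there, and with the inhibitor it came back to 38.8% in KO co-cultures and 41.8% in WT co-cultures, among the lowest returns of the set. The polo-like kinase Plk1, by contrast, stood at 64.5% in KO and 65.8% in WT co-cultures with CXCR2i, and at 6.40% in KO and 6.18% in WT co-cultures without it. Aurka, the Aurora kinase of centrosomes, lay at 58.2% in KO and 60.2% in WT co-cultures with CXCR2i.

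Cdc25b and Cdc25c are phosphatases that switch on Cdk1. Cdc25b measured 3.94, 3.67, 3.66 and 4.33 FPKM in KO co-cultures with CXCR2i, 3.31, 4.75 and 4.03 FPKM in WT co-cultures with CXCR2i and 4.41, 3.77 and 4.11 FPKM in hepatocytes alone, and the 3 groups overlapped. Without the inhibitor it measured 0.727, 0.762 and 0.594 FPKM in KO co-cultures and 0.716, 0.538 and 0.461 FPKM in WT co-cultures, all under every library of the other groups. Its log2 fold change against hepatocytes alone was -0.06 in KO co-cultures with CXCR2i (95% interval -0.26 to 0.14, adjusted p = 0.598) and -0.03 in WT co-cultures with CXCR2i (-0.24 to 0.19, adjusted p = 0.828). These intervals bound the remaining difference but do not show that the levels were the same. Cdc25c had the smallest fall of the 8 genes in WT co-cultures, to 20.3% of its level in hepatocytes alone (0.811 to 1.09 FPKM against 4.37 to 5.59 FPKM).

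The chromosomal passenger complex, which corrects faulty spindle attachments and later steers cytokinesis, consists of the kinase Aurkb, survivin (Birc5), borealin (Cdca8) and the scaffold Incenp. All 4 fell in both co-cultures and rose with the inhibitor. Aurkb measured 4.89, 5.61, 5.16 and 3.41 FPKM in KO co-cultures with CXCR2i, 5.42, 6.09 and 5.37 FPKM in WT co-cultures with CXCR2i, 1.56, 1.74 and 1.86 FPKM in KO co-cultures, 1.16, 1.38 and 1.18 FPKM in WT co-cultures and 14.3, 14.8 and 15.6 FPKM in hepatocytes alone. Its return to 32.1% of the level in hepatocytes alone in KO co-cultures with CXCR2i was the lowest of the 42 genes in that group, a place that rested on the fourth KO library with CXCR2i. Without that library it stood at 35.1%, above Birc5 at 33.3% and Nuf2 at 34.1%. Birc5 also stayed low, at 34.03% in KO and 38.8% in WT co-cultures with CXCR2i. Incenp had the highest mean of any member in hepatocytes alone (34.1 FPKM), though its libraries overlapped with those of Ccnb2 (mean 33.9 FPKM). Incenp measured 10.6, 10.2 and 9.55 FPKM in KO co-cultures, 8.16, 9.48 and 8.75 FPKM in WT co-cultures and 35.4, 33.2 and 33.7 FPKM in hepatocytes alone. After Bub3 it kept the largest share without the inhibitor, 29.7% in KO and 25.8% in WT co-cultures, and its rise with the inhibitor was correspondingly small (0.57 ± 0.05 in log2 in KO and 0.86 ± 0.05 in WT co-cultures). Cdca8 stood highest of the 4 with CXCR2i, at 61.3% in KO and 70.1% in WT co-cultures.

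Among the 5 spindle checkpoint genes, the kinases Bub1 and Ttk, the BubR1 kinase Bub1b and Mad2l1 followed the rest of the set, whereas the adaptor Bub3 did not. Bub3 measured 12.9, 13.4, 12.9 and 13.3 FPKM in KO co-cultures with CXCR2i, 14.3, 13.2 and 14.2 FPKM in WT co-cultures with CXCR2i, 12.8, 13.4 and 13.3 FPKM in KO co-cultures, 12.9, 13.4 and 13.3 FPKM in WT co-cultures and 19.2, 18.2 and 18.8 FPKM in hepatocytes alone. Every co-culture library lay under every library of hepatocytes alone, and the 4 co-culture groups overlapped with one another. The fall was -0.48 ± 0.04 in KO and -0.47 ± 0.04 in WT co-cultures (adjusted p = 4.50e-08 and 5.30e-08), the smallest of the set. With the inhibitor the log2 fold change was -0.00 in KO co-cultures (95% interval -0.08 to 0.07, adjusted p = 0.949) and 0.06 in WT co-cultures (-0.02 to 0.14, adjusted p = 0.153). The WT value passed the threshold without the second WT library with CXCR2i (0.09, adjusted p = 0.0467) and with limma's voom on recovered fragments (0.11, adjusted p = 0.0405). In the table's coordinates Fgfr2 overlaps Bub3 on the opposite strand, itself changed by -1.21 in WT co-cultures against hepatocytes alone and by 1.72 with the inhibitor, and the strandedness of the counting is not given in the sources used here.

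Bub1 measured 5.46, 6.02, 6.72 and 7.399 FPKM in KO co-cultures with CXCR2i, 7.13, 6.36 and 6.40 FPKM in WT co-cultures with CXCR2i, 0.815, 0.729 and 0.521 FPKM in KO co-cultures, 0.856, 0.581 and 0.690 FPKM in WT co-cultures and 9.09, 10.7 and 10.6 FPKM in hepatocytes alone. It was thus at 6.80% and 7.01% of the level in hepatocytes alone in KO and WT co-cultures, and at 63.2% in KO and 65.5% in WT with the inhibitor. Mad2l1, the checkpoint protein that binds Cdc20, returned only to 37.1% in KO and 40.0% in WT co-cultures with CXCR2i. Ttk, the kinase at the top of the checkpoint, was the member furthest above its WT counterpart in KO co-cultures with CXCR2i (0.10 in log2, adjusted p = 0.693), which did not pass the test.

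The 6 kinetochore genes all fell in both co-cultures and rose with the inhibitor. Ndc80, Nuf2 and Spc25 belong to the Ndc80 complex that grips microtubules, Cenpa is the histone H3 variant that marks centromeres, and Cenpe and Cenpf are large proteins of the outer kinetochore. Nuf2 measured 1.75, 2.02, 1.498 and 1.73 FPKM in KO co-cultures with CXCR2i, 1.87, 1.57 and 2.00 FPKM in WT co-cultures with CXCR2i, 0.241, 0.149 and 0.279 FPKM in KO co-cultures, 0.274, 0.125 and 0.233 FPKM in WT co-cultures and 5.04, 5.20 and 5.22 FPKM in hepatocytes alone. As few as 15 fragments stood behind a WT value. The mean was 4.33% of that in hepatocytes alone in KO and 4.09% in WT co-cultures, while on the log2(FPKM + 1) scale, which understates changes of low genes, its fall in WT co-cultures (-2.35) was smaller than the median of the set. The return with the inhibitor, 33.95% in KO and 35.2% in WT co-cultures, was among the lowest. Cenpa lay at the other end, with 4.58, 4.31, 4.44 and 5.17 FPKM in KO co-cultures with CXCR2i, 4.92, 4.80 and 4.47 FPKM in WT co-cultures with CXCR2i and 4.20, 5.28 and 5.31 FPKM in hepatocytes alone. Those 3 groups overlapped, and the libraries without the inhibitor (0.765, 0.792 and 0.898 FPKM in KO and 0.805, 0.747 and 0.936 FPKM in WT co-cultures) all lay under them. Its log2 fold change against hepatocytes alone was -0.07 in KO co-cultures with CXCR2i (95% interval -0.23 to 0.09, adjusted p = 0.406) and -0.04 in WT co-cultures with CXCR2i (-0.22 to 0.13, adjusted p = 0.640).

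Cenpf combined a deep fall with a high return, at 0.125 to 0.171 FPKM in WT co-cultures and 3.04 to 3.46 FPKM in hepatocytes alone, and it stood at 78.9% of the level in hepatocytes alone in WT co-cultures with CXCR2i. Ndc80, Spc25 and Cenpe returned to between 52.9% and 59.8% over both genotypes.

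The 6 spindle genes fell and rose in every one of the 4 corresponding comparisons. Kif11, the motor that pushes spindle poles apart, measured 10.6, 9.93, 10.2 and 11.7 FPKM in KO co-cultures with CXCR2i, 10.9, 10.5 and 10.4 FPKM in WT co-cultures with CXCR2i, 2.57, 2.55 and 2.88 FPKM in KO co-cultures, 1.75, 2.07 and 1.85 FPKM in WT co-cultures and 22.3, 22.5 and 22.1 FPKM in hepatocytes alone. The 4 co-culture groups formed 2 levels, one with and one without the inhibitor, and KO and WT libraries did not overlap in the lower. Tpx2, which activates Aurka on the spindle, kept the largest share of the 6 in WT co-cultures, 11.02% of its level in hepatocytes alone. The depolymerase Kif2c, the chromokinesin Kif4, the bundling protein Nusap1 and the pole protein Hmmr kept 5.06% (Kif2c), 5.65% (Kif4), 5.18% (Nusap1) and 5.51% (Hmmr) there. With the inhibitor Kif4 returned furthest (65.2% in KO and 69.2% in WT co-cultures) and Hmmr least in WT co-cultures (42.2% in KO and 40.1% in WT).

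All 6 genes of cytokinesis behaved alike in direction. Anln, the anillin that organises the contractile ring, measured 11.3, 11.4, 11.3 and 12.0 FPKM in KO co-cultures with CXCR2i, 12.2, 11.7 and 12.5 FPKM in WT co-cultures with CXCR2i, 2.03, 1.56 and 2.00 FPKM in KO co-cultures, 1.64, 1.30 and 1.47 FPKM in WT co-cultures and 15.9, 16.2 and 15.7 FPKM in hepatocytes alone. Groups with and without the inhibitor lay far apart, and the level with it stayed under that of hepatocytes alone in all 7 libraries. Prc1, which bundles the midzone, reached 73.2% and 73.8% of its level in hepatocytes alone in KO and WT co-cultures with CXCR2i, and the RhoA activator Ect2 only 39.0% in KO and 41.2% in WT. Of the centralspindlin subunits, Racgap1 came back to 56.7% in KO and 60.2% in WT co-cultures with CXCR2i, and Kif23 to 42.9% in KO and 47.0% in WT; no test of that difference was made. The midzone kinesin Kif20a reached 59.4% in KO and 61.1% in WT.

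The 3 genes of anaphase fell in both co-cultures and rose with the inhibitor, and Ube2c had the highest mean level of any member in both groups with it. Ube2c, the ubiquitin-conjugating enzyme of the anaphase-promoting complex, measured 21.3, 20.9, 22.0 and 22.3 FPKM in KO co-cultures with CXCR2i, 21.1, 22.7 and 22.1 FPKM in WT co-cultures with CXCR2i, 3.71, 2.57 and 3.66 FPKM in KO co-cultures, 3.15, 2.80 and 2.00 FPKM in WT co-cultures and 28.4, 31.3 and 29.9 FPKM in hepatocytes alone. Cdc20, the activator of that complex, stood at 78.3% in KO and 80.5% in WT co-cultures with CXCR2i, and securin (Pttg1) at 61.7% in KO and 66.1% in WT. In WT co-cultures without the inhibitor the 3 genes were at 8.87% (Ube2c), 15.7% (Cdc20) and 16.6% (Pttg1).

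Foxm1 and Mybl2 encode transcription factors that act with MuvB on promoters of the kind printed above. Foxm1 measured 10.5, 9.98, 10.7 and 11.4 FPKM in KO co-cultures with CXCR2i, 11.2, 11.4 and 11.7 FPKM in WT co-cultures with CXCR2i, 1.92, 2.28 and 2.36 FPKM in KO co-cultures, 2.09, 2.02 and 1.78 FPKM in WT co-cultures and 24.3, 24.8 and 24.1 FPKM in hepatocytes alone. The log2 fold change was -3.10 ± 0.06 in WT co-cultures against hepatocytes alone (adjusted p = 9.45e-15) and 2.07 ± 0.06 with the inhibitor (adjusted p = 5.03e-13). Mybl2, or B-Myb, was at 8.86% in WT co-cultures, and with the inhibitor at 41.1% in KO and 50.47% in WT co-cultures. Both fell and rose in the same comparisons as the other members, and no library of either factor with the inhibitor reached the range of hepatocytes alone.

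**Figure D4:**
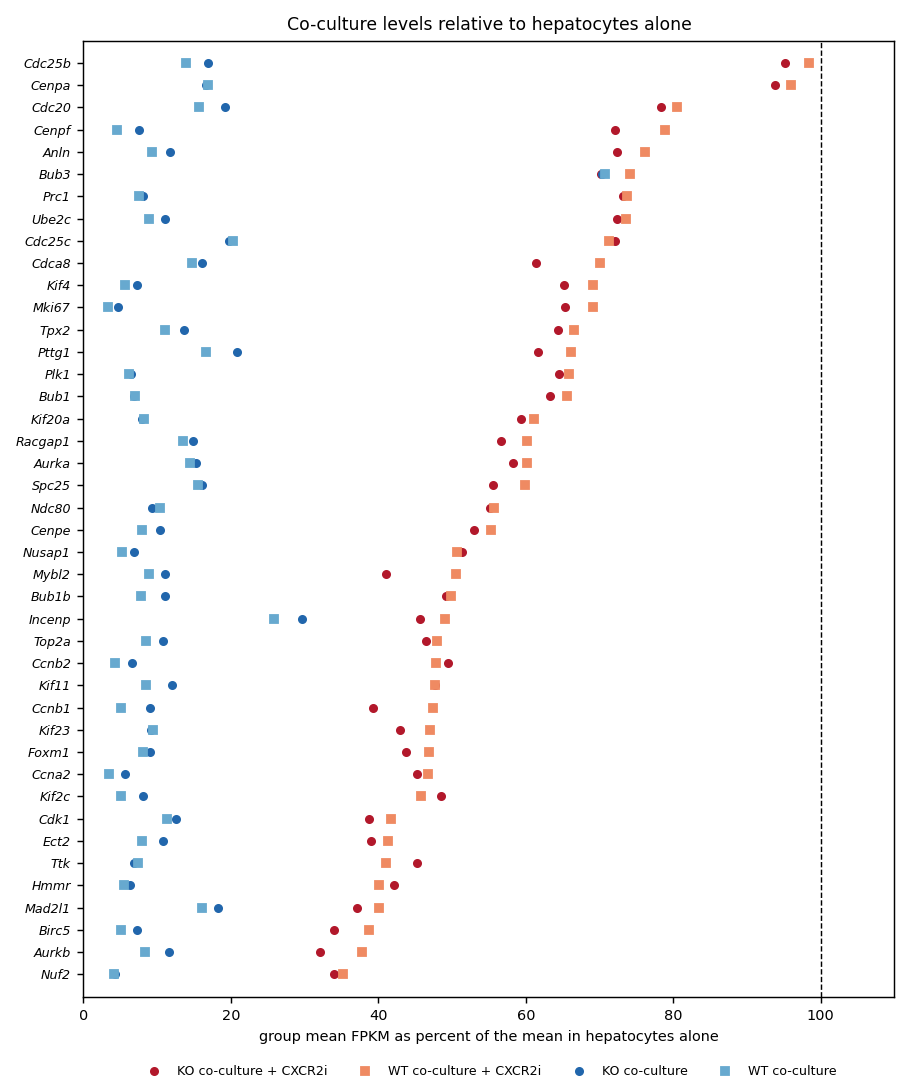
Mean FPKM of each member in the 4 co-culture groups as percent of its mean in hepatocytes alone (dashed line at 100), ordered by the WT co-culture with CXCR2i. Without CXCR2i all members but Bub3 lie at or under 29.7%, and with it they spread between 32.1% and 98.4%.

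Members differed in how far they came back with the inhibitor. In KO co-cultures with CXCR2i, 3 members stood at 75% or more of their level in hepatocytes alone and 19 under 50%, and in WT co-cultures with CXCR2i 5 stood at 75% or more and 18 under 50%. By role, the median was lowest for the passenger complex (39.8% in KO and 43.9% in WT co-cultures with CXCR2i) and highest for the anaphase genes (72.3% and 73.5%). The kinetochore genes (55.4% and 57.8%), the entry genes (53.8% and 54.0%) and the spindle genes (49.9% and 49.1%) lay between. Members near each other in this order can change places with 1 library. Without the fourth KO library with CXCR2i, for example, Cdk1 stood at 39.2% and Ect2 at 37.8%, against 38.8% and 39.0% with it. These shares are descriptions and were not tested between members.

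Set against WT co-cultures, KO co-cultures had higher levels of a few members, all by small amounts. Of 42 members 4 were higher and none lower, beside 1.65% of all genes tested that were higher, and 34 of 42 log2 fold changes were above 0. Their median was 0.12, against 0.01 for all genes. Kif11 averaged 2.67 ± 0.190 FPKM in KO and 1.89 ± 0.162 FPKM in WT co-cultures (0.34 ± 0.06, adjusted p = 0.00571), and Top2a averaged 3.54 ± 0.183 FPKM in KO and 2.76 ± 0.137 FPKM in WT (0.27 ± 0.05, adjusted p = 0.00732). Ccnb1 averaged 1.51 ± 0.371 FPKM in KO and 0.841 ± 0.0552 FPKM in WT (0.43 ± 0.11, adjusted p = 0.0429), and Mki67 1.02 ± 0.0834 FPKM in KO and 0.719 ± 0.0532 FPKM in WT (0.23 ± 0.05, adjusted p = 0.0298). All 3 KO libraries lay above all 3 WT libraries in each of these 4 genes, as in 12 of the 42 members, beside 8.20% of all genes tested, and in none of the 42 did they lie below, beside 7.55%. Each of the 4 called differences was under 2-fold on the log2(FPKM + 1) scale.

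The calls of Kif11 and Top2a held in 24 of 25 alternative fits and ended when only the 6 libraries compared were fitted (adjusted p = 0.232 and 0.270). Mki67 held in 16 of 25 and was lost without any 1 of the 3 WT libraries or KO library 2 or 3 (adjusted p = 0.0502 to 0.112). Ccnb1 held in 10 of 25, and was lost without any WT library, KO library 1 or 3, and some libraries of other groups (adjusted p = 0.0566 to 0.165). Other members passed the threshold once a single library was left out, namely Ccna2 without KO library 3 (0.0324), Ccnb2 without WT library 3 (0.0485), Incenp without WT library 2 (0.0422), Anln without WT library 1 (0.0492) or KO library 2 (0.0205), and Aurkb without the fourth KO library with CXCR2i (0.0465). With a pseudocount of 0.1, Ccnb2 (0.0355) and Bub1b (0.0221) passed as well.

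With the inhibitor, limma called none of the 42 members between KO and WT co-cultures, beside 2.31% of all genes called in either direction, and voom called none. At an unadjusted p under 0.05 there were 3, beside 12.3% of all genes, each below 0: Mybl2 (-0.22 ± 0.08, adjusted p = 0.247), Ccnb1 (-0.24 ± 0.10, adjusted p = 0.313) and Kif23 (-0.12 ± 0.05, adjusted p = 0.396). The median log2 fold change was -0.05, against 0.00 for all genes, and 36 of 42 were below 0. All 4 KO libraries with CXCR2i were under all 3 WT libraries with CXCR2i in the summed FPKM given above. In the members' share of fragments these groups overlapped, so the separation depended on the measure.

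**Figure D5:**
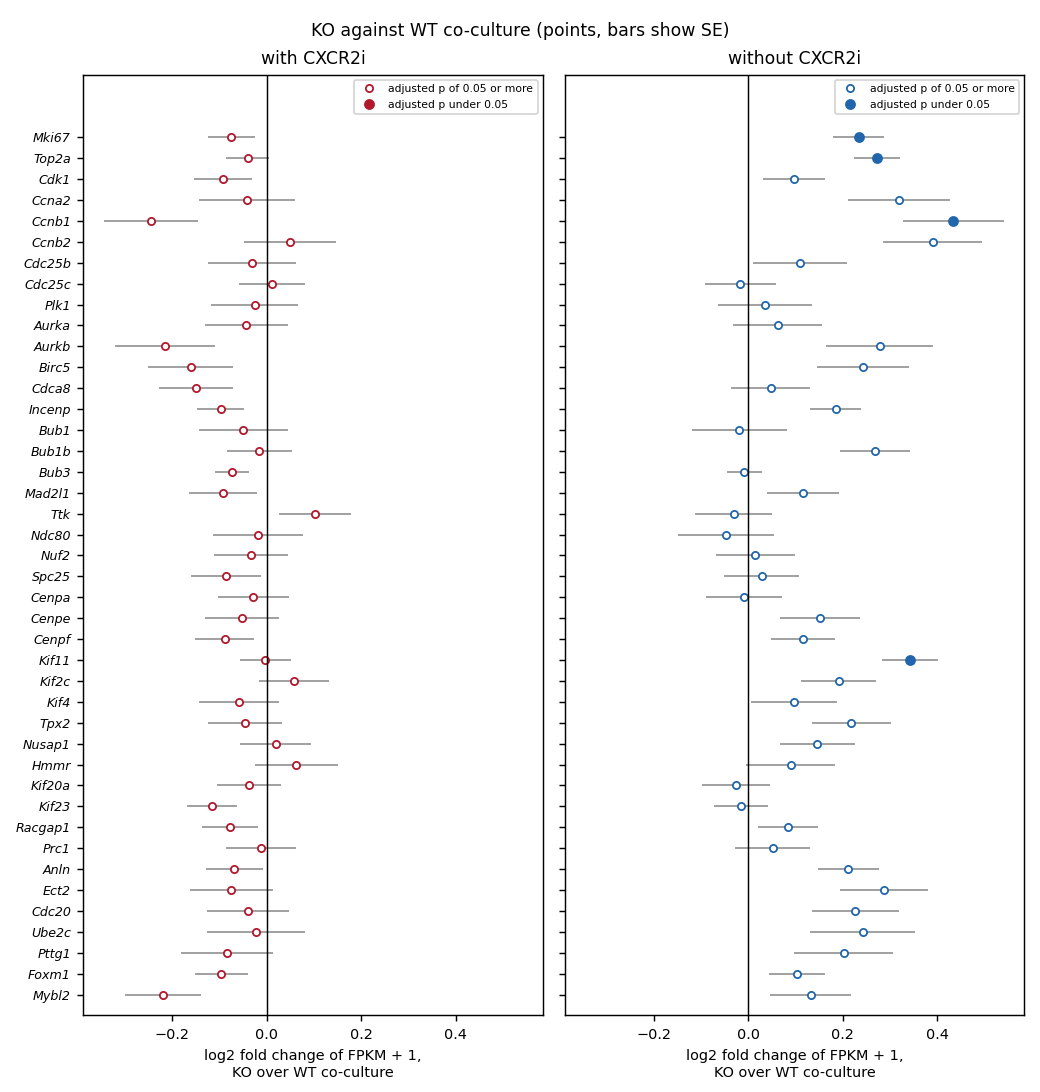
Log2 fold change of FPKM + 1 of each member between KO and WT co-cultures with CXCR2i (left) and without it (right), with bars for the SE; filled points have an adjusted p under 0.05. On the right 4 points are filled and 34 of 42 lie above 0, and on the left none is filled and 36 lie below 0.

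The difference between both inhibitor effects, tested as an interaction (the effect in KO minus the effect in WT co-cultures), was below 0 in 39 of 42 members. Only Top2a (-0.31 ± 0.07, adjusted p = 0.0463) and Ccnb1 (-0.68 ± 0.15, adjusted p = 0.0468) passed the threshold, beside 0.281% of all genes in that direction. The members' median was -0.20, against -0.01 for all genes. Ccnb1 rose 4.36-fold with the inhibitor in KO and 9.42-fold in WT co-cultures, and Top2a 4.30-fold in KO and 5.69-fold in WT. Both calls were fragile. The Top2a call was lost without any 1 library other than the first of hepatocytes alone (adjusted p = 0.0548 to 0.132), and the Ccnb1 call without any 1 of 13 libraries (0.0552 to 0.122). Kif11 passed without the fourth KO library with CXCR2i (-0.39, adjusted p = 0.0341).

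Genes of mitosis outside the set moved in the same direction but less uniformly. Of 124 listed genes, 112 were tested. In WT co-cultures against hepatocytes alone 83 fell, 6 rose and 23 did not pass, at a median log2 fold change of -0.71, beside 31.9% of all genes that fell and 30.1% that rose. In KO co-cultures 84 fell, 5 rose and 23 did not pass (-0.72), beside 31.2% and 30.3% of all genes. In WT co-cultures with CXCR2i against WT co-cultures 70 rose and 22 fell (0.40), beside 33.5% and 33.0% of all genes, and in KO co-cultures with CXCR2i against KO co-cultures 66 rose and 19 fell (0.31), beside 34.8% and 34.7%. Between KO and WT co-cultures limma and voom called none of the 112 with or without the inhibitor, with 13 at an unadjusted p under 0.05 with it and 16 without it (12.3% and 14.2% of all genes).

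Over all genes tested, 31.9% fell and 30.1% rose in WT co-cultures against hepatocytes alone. With the inhibitor 33.5% rose and 33.0% fell in WT co-cultures. The counts by list that follow are set beside these shares. Closest to the set were the other genes of the spindle and cytokinesis, of which 18 of 19 fell in WT co-cultures (median -2.004) and 17 rose with the inhibitor. Among them Cep55, which completes abscission, changed by -3.10 and 1.88 on the log2 scale in these 2 comparisons, and the spindle protein Ckap2l by -2.78 and 2.14. Of 14 other entry genes 13 fell in WT co-cultures and 9 rose with the inhibitor, led by the kinases Pbk (-3.39 and 1.68) and Melk (-2.55 and 1.66). The Cdk1 partner Cks1b went the other way with the inhibitor (-0.67). Of 21 kinetochore and centromere genes 17 fell in WT co-cultures, among them the centromere protector Sgo1 (-2.12) and Cenpm (-2.05). With the inhibitor 13 of the 21 rose and 4 fell (median 0.61), and Cenpm (1.96) and Oip5 (1.62) rose most. Dsn1 and Mis12, subunits of the Mis12 complex, were among the 4 that fell (-0.66 and -0.34). All 7 other checkpoint genes were tested, and 6 fell, led by the Spindly gene Spdl1 (-1.98) and Kntc1 (-1.87).

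The subunits of condensin and cohesin fell in 13 of 18 genes in WT co-cultures, with Cdca5, which locks cohesin on chromatin, at -2.43 and the condensin subunit Ncapg at -2.27. Of the 18 other genes of the anaphase-promoting complex and anaphase, 7 fell and 1 rose in WT co-cultures (median -0.11), and 4 rose and 8 fell with the inhibitor, so that the falls in WT co-cultures were near the 31.9% of all genes. Separase (Espl1, -1.94 in WT co-cultures and 1.53 with the inhibitor) and the complex's inhibitor Fbxo5 (-1.88 and 1.06) moved with the set. The core subunit Anapc16 was higher in WT co-cultures (0.48) and lower with the inhibitor (-0.46). Of 15 genes of DREAM, MuvB, the RB family and the E2F family, 9 fell and 4 rose in WT co-cultures (median -0.21), beside 31.9% and 30.1% of all genes. With the inhibitor 6 of them rose and 6 fell in WT co-cultures, beside 33.5% and 33.0% of all genes. In WT co-cultures against hepatocytes alone the repressor E2f8 fell by most (-2.72), followed by Rbl1 (-1.58), whereas E2f5 (0.47) and the MuvB subunit Lin52 (0.34) rose.

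In the table's coordinates 16 members overlap a gene on the opposite strand, with 17 such partners in all. The 8 partners that were tested are Fgfr2 at Bub3, Oip5 at Nusap1, Elovl1 at Cdc20, Exosc9 at Ccna2, Cdc23 at Kif20a, Rccd1 at Prc1, Pdzd11 at Kif4 and 9930104L06Rik at Cdca8. The 9 partners under the minimum for testing averaged at most 0.351 FPKM (Spef1, at Cdc25b). Oip5 changed like its partner (-2.005 in WT co-cultures against hepatocytes alone and 1.62 with the inhibitor), and the tested partners other than Oip5 and Fgfr2 changed by -0.04 to 0.39 and by -0.24 to 0.32. Reads of both partners cannot be told apart without strand. The pseudogenes Ccnb1-ps and Ccnb2-ps were listed at means of 0.371 and 0.350 FPKM, so that the lowest values of Ccnb1 and Ccnb2 are uncertain by reads that the counting may have split, and Kif4-ps was at 0.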

How the data were processed

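RNA was sequenced from 16 libraries. The RNeasy mini kit was used for extraction, per the labels' protocols. HISAT2 was the aligner and the builds named are GRCm38 and mm10, per the submitters' processing notes. Its version, the counting tool, annotation and strandedness were not given in the sources used here. Deposited values are FPKM, made by the authors and given for each library. FPKM multiplied by gene length came out as whole multiples of 1 fragment, to within 0.1 fragment in 100% of values above 0, which gave the depth. Summed fragments over the divisor used in the FPKM averaged 1.03 in hepatocytes alone and 1.00 in KO and in WT co-cultures. With CXCR2i the ratio averaged 0.97 in either genotype. The divisor was thus not simply the summed fragments, and how it was set is not stated in the sources used here. Fragments may include PCR duplicates.

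Values were tested as log2(FPKM + 1) with limma 3.58.1 in R 4.3.3. All 16 libraries entered one linear model with a term for each group (11 residual degrees of freedom, moderated variances with an intensity trend) over the 11395 genes with a mean of at least 1 FPKM. Tests were two-sided, with p-values adjusted by Benjamini-Hochberg over all of these genes and a threshold of 0.05. The test was checked on simulated data, with changed genes drawn only from those above a minimum of fragments and spread set alike for every gene. That check does not extend to low values such as those of Nuf2 in the co-cultures. Fold changes on this scale understate those of low genes. Percentages of the level in hepatocytes alone are ratios of group means of FPKM. Alternatives were a pseudocount of 0.1, no filter, a minimum of 5 FPKM, median-ratio and quantile scaling, limma's voom on recovered fragments, fitting only the libraries compared, no intensity trend, a replicate block, a 2-fold minimum and leaving out each library. Replicate numbers were not used as a block in the main fit. Over 30 pairs of same-numbered libraries of different groups, deviations from the group means correlated at -0.300 to 0.270 (median 0.01). With so few libraries per group, these correlations cannot settle whether libraries were paired.

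The members, the other gene lists and the marker lists were chosen with earlier results of these data known. All members may be named. Of other mitosis genes, the 2 largest changes past the threshold each way per list and comparison may be named, with genes that overlap members, pseudogenes and markers.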

Additional observations from a re-analysis of the deposited data

Results flagged for a closer look

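In the 4 KO co-cultures with CXCR2i, 2 members had 1 library far from the other 3, and chance flags about 1 in 20 such groups. Nusap1 measured 4.14 FPKM in replicate 3 and 4.58 to 4.63 FPKM in the others. Hmmr measured 5.33 FPKM in replicate 2 and 4.82 to 4.89 FPKM in the others. Leaving out either library changed no call of these genes.

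The effect of CXCR2i differed between KO and WT co-cultures by a limma interaction test in 2 members. The log2 difference was -0.31 ± 0.07 for Top2a (SE, adjusted p = 0.0463) and -0.68 ± 0.15 for Ccnb1 (adjusted p = 0.0468). Both stand close to the threshold of 0.05.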

How the results depend on the processing

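No member changed direction in a called comparison under any alternative, and the calls in both co-cultures against hepatocytes alone, with and without CXCR2i, and in KO co-cultures with CXCR2i against KO co-cultures were the same in every fit that tested the gene. A minimum of 5 FPKM left 26 members to test, of which 26 fell in each of the 4 co-cultures against hepatocytes alone and 25 rose with CXCR2i in KO and in WT co-cultures. Requiring 2-fold left 15 members lower in KO and 13 in WT co-cultures with CXCR2i against hepatocytes alone, 0 between KO and WT co-cultures and 0 in the interaction. Between KO and WT co-cultures, 6 members were called with a pseudocount of 0.1, 2 with no filter, with quantile scaling and with voom, 0 when only the libraries compared were fitted, and 3 to 5 when 1 library was left out. For the interaction, 4 were called with a pseudocount of 0.1, 1 with voom, 0 with no filter, quantile scaling, only the libraries compared or no intensity trend, and 0 to 2 when 1 library was left out. With the replicate block 5 were called between KO and WT co-cultures (Aurkb was added) and 0 in the interaction; the cause was not tested. Depth limits the lowest values: 15 fragments stood behind the lowest Nuf2 value.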
